A study of Mus musculus with 55 samples.

Results

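Scavenger and endocytic receptors of the liver sinusoid were examined as a group of 10 genes: Marco, Msr1, Cd36, Cd163, Stab1, Stab2, Mrc1, Lyve1, Clec4g and Fcgr2b. They were taken by symbol from an RNA sequencing table with 24478 symbols, and all 10 were present. The study sorted 10 cell populations by FACS from livers of C57B/L6 mice, either normal or after partial hepatectomy (PH, surgical removal of part of the liver), and deposited FPKM, the abundance of fragments scaled to transcript length and library size. Normal liver gave 27 libraries and PH liver 28. For the 4 sorts compared in most detail, normal liver gave 3 libraries of sinusoidal endothelial cells (LSEC) and 2 each of endothelial cells (EC), Kupffer cells (KC) and blood cells, and PH liver gave 5 of LSEC, 3 of EC, 3 of KC and 2 of blood cells. The other sorts were stellate cells (HSC), Thy1 cells, ducts without progenitor activity (NPD), biliary cells (BEC), clonal biliary cells (cBEC) and hepatocytes (HC). Time after surgery, the animals' age and sex and the antibodies of each gate are not given in the sources used here.

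Sinusoidal endothelium and Kupffer cells line the same capillaries of the liver and clear modified proteins, lipoproteins, matrix fragments, immune complexes and bacteria from the blood. The class A scavenger receptors (Marco and Msr1) bind polyanionic ligands and bacteria, Cd36 takes up fatty acids and oxidised lipoprotein, and Cd163 takes up haptoglobin-haemoglobin complexes. The stabilins (Stab1 and Stab2) take up hyaluronan and modified proteins, Mrc1 is the mannose receptor, Clec4g is a C-type lectin of sinusoidal endothelium, Lyve1 binds hyaluronan, and Fcgr2b is the inhibitory IgG receptor that also carries small immune complexes into sinusoidal endothelium.

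The sum of FPKM over the rows used ran from 393620 to 762627 per library, and the read depth behind each value is unknown. Nothing in the labels says that libraries of a group came from separate animals, so the p-values measure only the spread between these libraries. Summed levels of 10 Kupffer markers (such as C1qa, Clec4f and Cd5l) were 23709 to 26313 FPKM in normal KC and 102 to 448 FPKM in normal LSEC. Summed levels of 10 markers of endothelium of any kind (such as Pecam1, Cdh5 and Kdr) were 5409 to 6662 FPKM in normal LSEC, 4305 to 5645 FPKM in normal EC and 2077 to 2597 FPKM in normal KC. The sinusoidal list of 10 genes (such as Dnase1l3 and Gpr182) summed to 4025 to 6772 FPKM in normal LSEC and 2122 to 3726 FPKM in normal EC. In normal KC it summed to 4370 and 4437 FPKM, with Fcna the highest gene (2319 FPKM). Markers of large vessel endothelium summed to 778 and 1718 FPKM in normal EC and 65.1 to 583 FPKM in normal LSEC. LSEC and EC thus held endothelial markers, with more of the large vessel list in EC. KC held Kupffer markers, and normal KC also held those of endothelium. In these bulk samples, fewer cells of a type and less RNA per cell cannot be told apart.

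Upstream sequences of the receptor genes were taken from RefSeq (build GRCm38.p6), which matched 8 of the 10 symbols; Msr1 and Lyve1 had no entry. The 3 shown belong to the receptor with the largest rise after PH (Marco), to a receptor found in both endothelial and Kupffer sorts (Mrc1) and to the most abundant receptor of normal LSEC (Clec4g). Each is the 250 bases before the annotated start, 5′ to 3′ on the gene's strand. The windows are chr1:120505025-120505274 (minus strand) for Marco, chr2:14229164-14229413 (plus strand) for Mrc1 and chr8:3720652-3720901 (minus strand) for Clec4g. Capitals mark the letters GAGGAA or their reverse complement TTCCTC, a core of the sites of PU.1, a transcription factor of myeloid cells.
Marco: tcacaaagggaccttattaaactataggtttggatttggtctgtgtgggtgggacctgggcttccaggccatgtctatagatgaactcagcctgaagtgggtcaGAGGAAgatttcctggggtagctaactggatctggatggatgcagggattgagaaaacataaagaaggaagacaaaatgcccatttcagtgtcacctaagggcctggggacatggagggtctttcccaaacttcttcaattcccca
Mrc1: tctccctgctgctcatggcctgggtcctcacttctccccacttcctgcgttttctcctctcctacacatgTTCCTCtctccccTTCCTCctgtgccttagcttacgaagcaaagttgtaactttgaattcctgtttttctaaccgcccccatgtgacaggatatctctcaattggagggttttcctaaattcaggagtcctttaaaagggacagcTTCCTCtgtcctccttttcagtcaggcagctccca
Clec4g: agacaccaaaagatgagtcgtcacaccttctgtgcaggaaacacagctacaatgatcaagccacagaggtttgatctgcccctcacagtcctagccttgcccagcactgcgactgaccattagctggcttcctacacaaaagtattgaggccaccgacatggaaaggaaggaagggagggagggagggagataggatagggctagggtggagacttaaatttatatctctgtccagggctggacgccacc
The Marco window holds 1 match, from -146 to -141 counted from the start, the Mrc1 window holds 3 and the Clec4g window none. In all, 3 of the 8 receptor windows (Marco, Mrc1 and Stab1) hold this core on either strand, against 23.3% of 32851 promoter windows of the same length. The MAF half-site letters TGCTGA stood in 2 of 8 windows (Cd36 and Stab1) against 16.1% of all, while the AP-1 site TGANTCA (6.75% of all) and the GATA letters AGATAA (9.99% of all) stood in none of the 8. Such matches describe letters only.

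The table's own positions, on the build mm9 named in the submitters' processing notes, place Marco on chromosome 1 (122371114 to 122401661, minus strand), Msr1 on chromosome 8 (40667053 to 40728032, minus) and Cd36 on chromosome 5 (17287507 to 17341714, minus). Cd163 lies on chromosome 6 (124254668 to 124280545, plus), Stab1 on chromosome 14 (31952202 to 31981827, minus) and Stab2 on chromosome 10 (86303954 to 86470687, minus). Mrc1 lies on chromosome 2 (14151040 to 14253650, plus), Lyve1 on chromosome 7 (117994120 to 118006467, minus), Clec4g on chromosome 8 (3716070 to 3720651, minus) and Fcgr2b on chromosome 1 (172890688 to 172906202, minus).

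In normal liver the receptors fell into 3 patterns of level. Marco and Cd163 were highest in KC, at 338 ± 0.25 and 452 ± 19.5 FPKM (SD, n = 2), and were 1.12 and 1.9 FPKM on average in LSEC. Msr1 and Cd36 were highest in EC, at 549 ± 297 and 1016 ± 128 FPKM (SD, n = 2), and the EC and KC libraries overlapped for Msr1. Stab1, Stab2, Mrc1, Lyve1, Clec4g and Fcgr2b were highest in LSEC, where Clec4g reached 3411 ± 894 FPKM (SD, n = 3). For Mrc1, Clec4g and Fcgr2b the LSEC libraries overlapped those of the next sort, KC, EC and KC respectively. For Lyve1 the next sort was Thy1, whose libraries differed widely, at 699.7 and 36.3 FPKM.

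**Figure D1:**
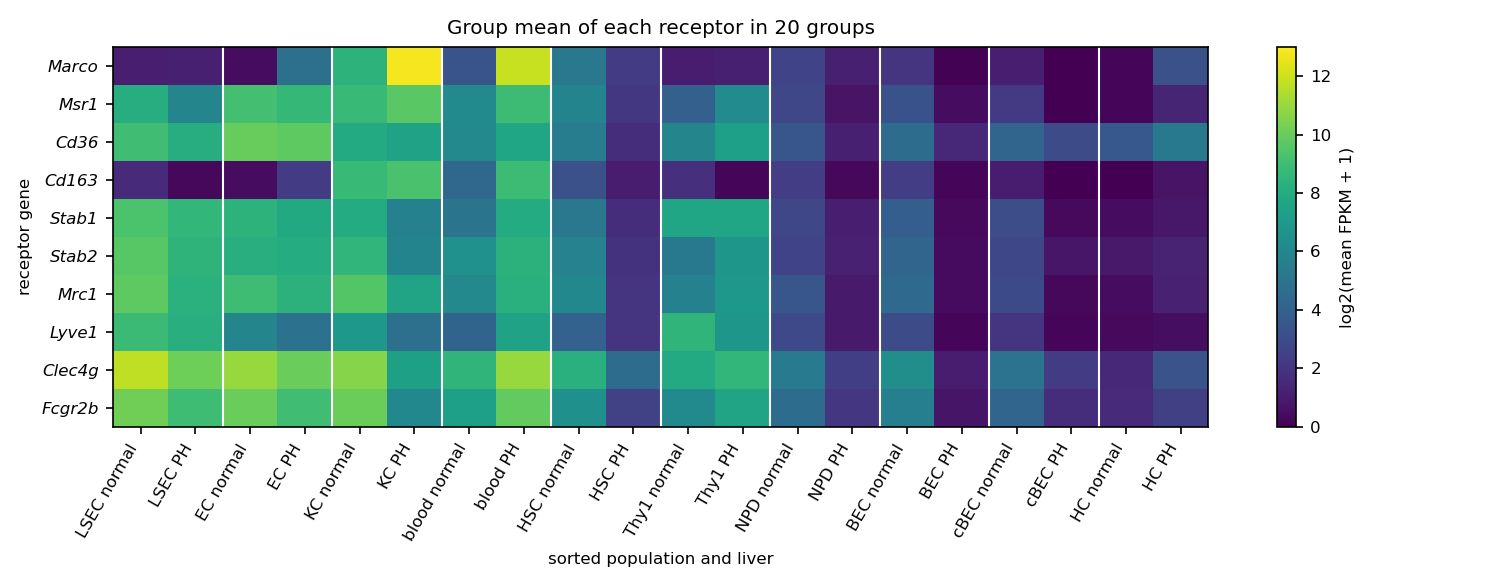
Group mean of each receptor as log2(mean FPKM + 1), by colour, for 10 sorted populations (horizontal axis, normal then PH) and 10 genes (vertical axis). Marco and Cd163 are dark in LSEC and bright in KC, and the brightest cell is Marco in PH KC (7179.9 FPKM).

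After PH the order changed. Marco, Msr1 and Cd163 were highest in KC, Cd36 and Mrc1 in EC, Stab1, Stab2 and Lyve1 in LSEC, and Clec4g and Fcgr2b in the blood sort, at 2008 and 926 FPKM. Of these, Marco and Cd36 had libraries clear of the next sort, and the other 8 receptors overlapped it. For Clec4g, blood libraries of 1087 and 2930.1 FPKM stood beside LSEC libraries from 551 to 1919 FPKM. The means of Mrc1 in EC, LSEC and blood ran from 304 to 325 FPKM. Outside HC, 21 of 470 receptor values were listed at 0, of which 9 lay in cBEC, 6 in HSC, 4 in BEC and 2 in LSEC (Marco in a normal library and Cd163 in a PH library). The highest receptor mean in HC was that of Cd36 in PH liver, 37.1 FPKM.

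Between KC from PH and normal liver, 8 of the 10 receptors differed, where 36.8% of 11835 genes tested passed (limma on log2(FPKM + 1), adjusted p under 0.05). Marco and Msr1 rose, as did 16.7% of genes, and Stab1, Stab2, Mrc1, Lyve1, Clec4g and Fcgr2b fell, as did 20.1%. The median change of the 10 receptors was -2.05 on the log2 scale, against -0.04 over all genes. Changes on this scale understate those of genes near 1 FPKM.

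Marco was 338 FPKM in each normal KC library and 6906, 6794 and 7840.5 FPKM in the PH libraries. The groups lay far apart, with a change of 4.40 (SE 0.11, adjusted p = 0.000239), or 21.2 times the normal mean. Msr1, of the same receptor class, rose far less, from 411 and 445 FPKM to 850.1, 969.7 and 620.2 FPKM. Its change was 0.90 (SE 0.21, adjusted p = 0.0227), and the lowest PH library still lay above both normal ones. The Msr1 call was lost without either normal library (adjusted p = 0.151 and 0.115) or without PH library 1 (adjusted p = 0.0686).

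Cd163 was 438 and 466 FPKM in normal KC and 490.0, 485 and 858 FPKM in PH KC. All PH libraries were above both normal ones, but only library 3 stood far above, and the change of 0.38 (SE 0.28) missed the threshold (adjusted p = 0.324). Cd36 was 226 and 269 FPKM in normal KC and 183, 193 and 155 FPKM after PH, with no overlap. Its change of -0.48 (SE 0.15) also missed the threshold (adjusted p = 0.0526), and passed it under quantile normalization (0.0117) and upper-quartile scaling (0.0387).

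The receptors whose normal mean was highest in LSEC were lower in PH KC by different amounts. Fcgr2b went from 886 and 1250.5 FPKM to 54.6, 49.3 and 93.7 FPKM, the largest fall among the receptors, with a change of -4.04 (SE 0.32, adjusted p = 0.00146). Clec4g went from 1309.9 and 1868 FPKM to 143, 127 and 237 FPKM, with a change of -3.26 (SE 0.31, adjusted p = 0.00196). The lowest normal library of each gene was several times its highest PH library. Stab2 fell by 2.70 on the log2 scale, from 366 and 384 FPKM to 56.7, 52.9 and 60.8 FPKM, and Stab1 fell by 2.28, from 225 and 284 FPKM to 48.3, 42.3 and 66.1 FPKM. Lyve1 fell by 2.18, from 90.2 and 154 FPKM to 20.8, 19.5 and 39.9 FPKM (adjusted p = 0.01), a call lost without either normal library (adjusted p = 0.0506 and 0.0875).

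Mrc1 had the smallest fall of the 6. It was 682 and 791 FPKM in normal KC and 187, 178 and 218 FPKM in PH KC, with a change of -1.92 (SE 0.14, adjusted p = 0.00139). Its PH level of 194 ± 20.8 FPKM (SD, n = 3) was the highest of these 6 receptors there, although Clec4g and Fcgr2b had been above it in normal KC. Endothelial transcripts moved with these falls in the same libraries. The 10 markers of endothelium of any kind summed to 2077 to 2597 FPKM in normal KC and 346 to 650 FPKM in PH KC, and 9 of the 10 passed as lower. Their highest member in PH KC was Cdh5. The summed Kupffer markers were 23709 to 26313 FPKM in normal KC and 35507 to 37612 FPKM in PH KC, and 3 of 10 passed as higher. The part of these markers in the receptor changes was not tested.

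**Figure D2:**
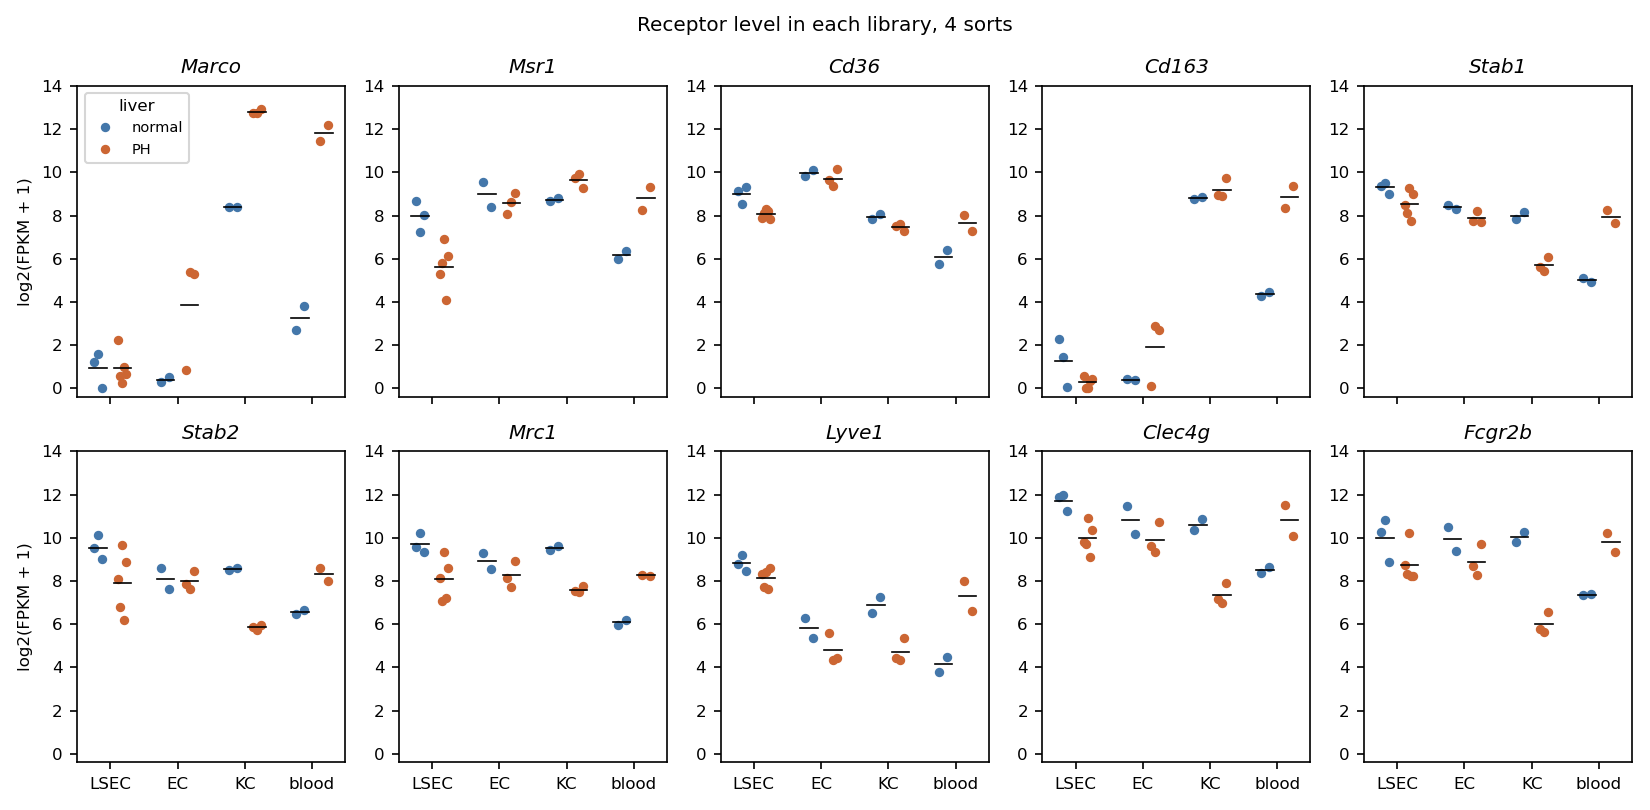
Level of each receptor as log2(FPKM + 1) in every library (points) of 4 sorts, with a bar at the mean of the log values, for normal and PH liver. In KC, Marco lies higher and Fcgr2b lower in PH than in normal liver, and in blood all 10 receptors lie higher.

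Between LSEC from PH and normal liver, 3 of 9 receptors tested differed, where 8.46% of 11501 genes passed. All 3 were lower after PH (Msr1, Cd36 and Clec4g), where 4.31% of genes passed as lower. Cd163 did not pass the filter of 1 FPKM in 3 libraries. The median change of the 9 was -1.25, against -0.03 over all genes. Of the 9, 7 had an unadjusted p under 0.05, all lower, and the share of all genes with such a p was not computed. The groups did not overlap for 3 receptors, all lower, where 18.8% of genes tested had no overlap and 10.5% were lower without overlap.

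Msr1 was 407, 151 and 261 FPKM in normal LSEC and 37.8, 54.4, 118, 15.8 and 69 FPKM in PH LSEC. All PH libraries lay below the normal ones, with a change of -2.35 (SE 0.58, adjusted p = 0.0394). Cd36 was 557, 376 and 642 FPKM in normal LSEC and 232, 278, 314, 298 and 226 FPKM after PH. These libraries were close together within PH and below all 3 normal ones, with a change of -0.93 (SE 0.21, adjusted p = 0.0264). Marco stayed near 1 FPKM in both groups, with a highest value of 3.75 FPKM in PH library 1, and a change of 0.01 (SE 0.50, adjusted p = 0.994).

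Clec4g, the most abundant of the receptors, was 3791, 4053 and 2390.0 FPKM in normal LSEC and 900.2, 839, 1919, 551 and 1311 FPKM after PH. The groups did not overlap, and the change was -1.72 (SE 0.38, adjusted p = 0.0222). The other receptors whose normal mean was highest in LSEC varied widely among the 5 PH libraries. Stab2 was 725, 1107 and 513 FPKM in normal LSEC and 268, 111, 812, 71.7 and 469 FPKM after PH, so that PH library 3 exceeded 2 of the normal libraries and library 4 was the lowest of all. Its change of -1.62 (SE 0.73) missed the threshold (adjusted p = 0.212). Mrc1 (-1.63, SE 0.49, adjusted p = 0.0715), Fcgr2b (-1.25, SE 0.54, adjusted p = 0.192), Stab1 (-0.78, SE 0.33, adjusted p = 0.179) and Lyve1 (-0.68, SE 0.27, adjusted p = 0.151) were likewise estimated lower and did not pass.

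PH LSEC library 3 was the highest of its group for 7 of the 10 receptors and library 4 the lowest for 6. Without library 3, 5 receptors passed, with Mrc1 (adjusted p = 0.0171) and Fcgr2b (adjusted p = 0.0378) added. Over all LSEC fits that left out 1 library, 2.37% to 11.4% of all genes passed. Without normal library 1 or PH library 1, none passed; without normal library 2 only Cd36 passed, and without PH library 5 only Clec4g. Fcgr2b is nearly identical in part of its sequence to Fcgr3, and how reads shared by such genes were counted is not given in the sources used here. The markers of endothelium of any kind summed to 5409 to 6662 FPKM in normal LSEC and 5540 to 6232 FPKM in PH LSEC, and 1 of 10 passed, as lower. The sinusoidal list summed to 2284 to 5140 FPKM in PH LSEC, with 2 of 10 higher and 2 lower, and Kupffer markers to 119 to 261 FPKM. The 8 markers of large vessel endothelium (such as Vwf and Cd34) summed to 275, 65.1 and 583 FPKM in normal LSEC and 628, 853, 359, 1188 and 539.5 FPKM in PH LSEC, and 1 of the 8 passed, as lower. Their sum was lowest in PH library 3 and highest in library 4. The part of these markers in the receptor changes was not tested.

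Between EC from PH and normal liver, 0 of 10 receptors passed limma's adjusted threshold, where 0.0249% of 12064 genes did, and 1 (Marco) had an unadjusted p under 0.05. Marco was 0.23 and 0.421 FPKM in normal EC and 0.816, 41.5 and 38.5 FPKM after PH. PH libraries 2 and 3 were high and library 1 was not, and the change of 3.45 (SE 1.38) had an adjusted p of 0.454. Without PH library 1, the lowest of its group, the change was bound to be larger, at 4.95 (limma, adjusted p = 0.0216). Cd163 followed the same split, at 0.0676, 6.31 and 5.62 FPKM after PH. Marco and Cd163 were under 1 FPKM in normal EC and were tested through PH EC alone, which favoured a rise in advance. Kupffer markers summed to 123 and 57.8 FPKM in normal EC and to 47.9, 269 and 181 FPKM in PH libraries 1, 2 and 3, so that they were high in the same PH libraries. Their part in the Marco and Cd163 values was not tested.

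Msr1 was 759 and 339 FPKM in normal EC and 268, 390.3 and 531 FPKM after PH, and Cd36 was 925 and 1106 FPKM in normal EC and 790.4, 663 and 1135 FPKM after PH. Both genes overlapped between treatments. Their changes were -0.41 (SE 0.41) and -0.27 (SE 0.28). The remaining 6 receptors had estimates from -1.06 for Fcgr2b to -0.13 for Stab2.

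**Figure D3:**
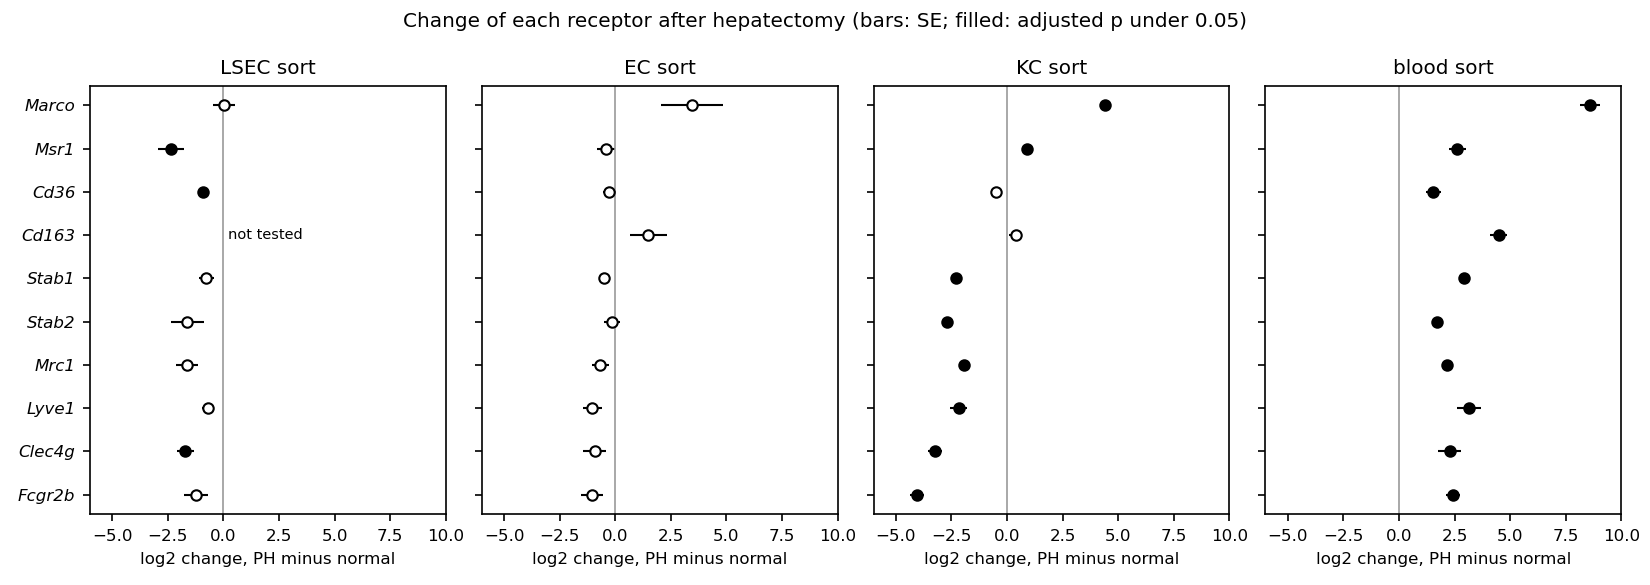
Change of each receptor from normal to PH liver on the log2(FPKM + 1) scale (horizontal axis, points with SE) in 4 sorts, filled where the adjusted p was under 0.05. Filled points are 3 in LSEC, 0 in EC, 8 in KC and 10 in blood.

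In the blood sort all 10 receptors rose after PH, where 64.0% of 12819 genes passed in either direction and 24.3% passed as higher. The median change of the receptors was 2.53, against -0.31 over all genes, a shift that ran from -0.35 to -0.06 over the scalings and filters tried. The smallest rise was that of Cd36 (1.55).

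Marco was 5.49 and 13 FPKM in normal blood cells and 2823 and 4759 FPKM in PH blood cells, a change of 8.59 (SE 0.46, adjusted p = 0.000786). Cd163 was 18.2 and 21.3 FPKM and then 324 and 654 FPKM, a change of 4.48 (SE 0.36, adjusted p = 0.00127). Both PH blood libraries exceeded normal KC (338 FPKM) for Marco, whereas for Cd163 they lay on either side of the normal KC libraries (438 and 466 FPKM). Lyve1 rose by 3.16, from 12.9 and 21.7 FPKM to 256 and 96.8 FPKM, and Stab1 by 2.93, from 33.4 and 29.6 FPKM to 306 and 199 FPKM. Clec4g was 335 and 403 FPKM in normal blood cells and 2930.1 and 1087 FPKM after PH, a rise of 2.28 (SE 0.51, adjusted p = 0.0153). Msr1 (2.63), Fcgr2b (2.43), Mrc1 (2.16) and Stab2 (1.73) rose by amounts between those of Stab1 and Cd36. PH blood library 1 was the higher for 7 receptors and library 2 for 3, Marco, Msr1 and Cd163.

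Markers of both tissue cell types moved with the receptors in the blood sort. The Kupffer markers summed to 1397 to 1822 FPKM in normal and 13307 to 22812 FPKM in PH blood cells, and 10 of 10 passed as higher. The markers of endothelium of any kind summed to 461 to 484 FPKM and 1518 to 3369 FPKM, and 10 of 10 passed as higher. B cell markers (5 of 5) and T and NK cell markers (6 of 6) passed as lower, the latter from 3305 to 3637 FPKM down to 46.2 to 96.4 FPKM. Their part in the receptor changes was not tested. With 2 libraries a group, leaving 1 out left 1 in a group, so how far the count rests on single libraries cannot be told. The changes then ran from 8.03 to 9.14 for Marco, the largest rise, and from 1.18 to 1.93 for Cd36, the smallest. All 20 groups were also put in 1 fit, so that every sort shared an estimate of spread. There 6 receptors passed in blood, 5 in KC and 1 in LSEC. Over the settings tried, 40.2% to 63.4% of all genes passed in blood, 18% to 55.3% in KC and 0.0261% to 9.16% in LSEC.

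**Figure D4:**
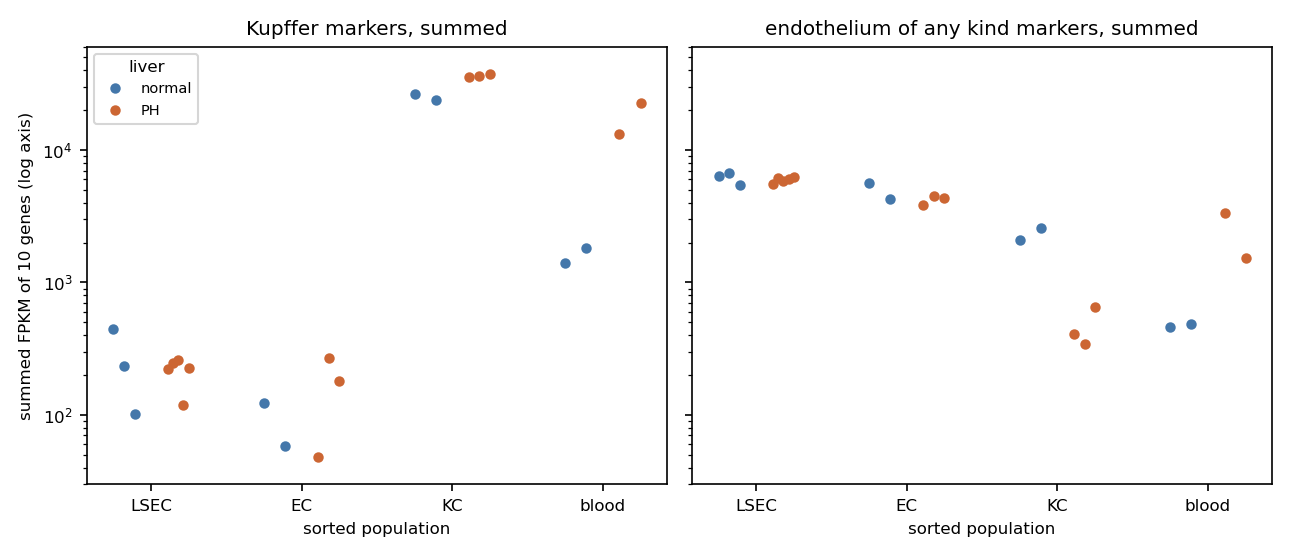
Summed FPKM of 10 Kupffer markers and of 10 markers of endothelium of any kind (log axis) in each library of 4 sorts, normal and PH. The endothelial sum in KC is 2077 to 2597 FPKM in normal and 346 to 650 FPKM in PH liver, and in blood both sums are higher in PH.

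The sorts were also compared within each treatment, using the same libraries as above. In normal liver 6 receptors differed between LSEC and KC, where 27.6% of 12186 genes passed (13.4% higher and 14.2% lower in LSEC). Cd36, Stab1, Lyve1 and Clec4g were higher in LSEC, by 1.05 to 1.92 on the log2 scale, and Marco (-7.47, SE 0.46, adjusted p = 0.000204) and Cd163 (-7.55, SE 0.64, adjusted p = 0.00102) were lower. Mrc1 (0.18, SE 0.28) and Fcgr2b (-0.05, SE 0.58) had estimates near 0 and overlapping libraries. Over the fits that left out 1 library, some with 1 KC library left, the difference ran from -7.80 to -6.99 for Marco and from 0.83 to 1.34 for Clec4g.

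After PH 9 receptors differed between LSEC and KC, where 58.9% of 11964 genes passed (29.8% higher and 29.1% lower in LSEC). Stab1 (2.82), Stab2 (2.07), Lyve1 (3.42), Clec4g (2.63), Fcgr2b (2.74) and Cd36 (0.60) were higher in LSEC, and Marco (-11.86), Cd163 (-8.93) and Msr1 (-4.01) were lower. Cd163 was under 1 FPKM in every PH LSEC library, and Marco reached 1 FPKM in libraries 1 and 4 only (3.75 and 1.01 FPKM). Marco and Cd163 thus needed KC to be tested, which favoured a lower value in LSEC in advance. The shares of all genes are no fair measure for them. Mrc1 was the only receptor that did not pass, at 0.47 (SE 0.48, adjusted p = 0.424), with PH LSEC libraries from 132 to 645 FPKM on both sides of the KC libraries.

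LSEC and EC from normal liver differed in 0 of 10 receptors by limma's adjusted threshold, where 0.00843% of 11868 genes passed, and 4 had an unadjusted p under 0.05. Lyve1 had the smallest adjusted p of the 10, 0.0894, with 438, 580.3 and 353 FPKM in LSEC against 77.3 and 39.7 FPKM in EC, a difference of 2.99 (SE 0.33). After PH 3 of 9 receptors tested differed, where 9.03% of 11753 genes passed (3.16% higher and 5.87% lower in LSEC). Lyve1 was higher in LSEC, by 3.34 (SE 0.33, adjusted p = 0.000224). Msr1 (-2.95, SE 0.53, adjusted p = 0.00633) and Cd36 (-1.65, SE 0.22, adjusted p = 0.00111) were lower in LSEC than in EC. Without PH EC library 1, 5 receptors passed, with Marco and Cd163 added. Cd163 was under 1 FPKM in every PH LSEC library and was then tested through EC libraries 2 and 3 alone (6.31 and 5.62 FPKM). That entry favoured a lower value in LSEC in advance. Kupffer markers were high in the same EC libraries, and their part was not tested. Over all fits of this comparison that left out 1 library, 6.44% to 11.3% of all genes passed. The response to PH itself differed between LSEC and EC for 0 of 10 receptors (limma, all 20 groups in 1 fit), where 0.345% of 16527 genes passed, and 2 had an unadjusted p under 0.05.

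All 10 receptors were higher in KC than in the blood sort of normal liver, where 74.9% of 12817 genes passed and 27.4% passed as higher. The differences ran from 1.86 for Cd36 to 5.15 for Marco, and that of all genes had a median of -0.40. After PH 6 receptors were lower in KC than in blood, where 15.3% of 12010 genes passed and 13.6% passed as lower: Fcgr2b (-3.78), Clec4g (-3.45), Lyve1 (-2.59), Stab2 (-2.46), Stab1 (-2.24) and Mrc1 (-0.65). Marco was 0.97 higher in KC (SE 0.27, adjusted p = 0.0647) and Msr1, Cd36 and Cd163 overlapped between the sorts. Over the fits that left out 1 library, some with 1 blood library left, the difference ran from -4.23 to -3.34 for Fcgr2b and from -0.74 to -0.59 for Mrc1. In these PH libraries the markers of endothelium of any kind were lower in KC for 9 of 10 genes, and their part in the receptor differences was not tested.

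The response to PH differed between KC and LSEC for 2 of 10 receptors, where 8.69% of 16527 genes passed and 2.05% had a lower value in LSEC. The contrast, the LSEC change minus the KC change, was -4.39 for Marco (SE 1.44, adjusted p = 0.0485) and -3.25 for Msr1 (SE 0.97, adjusted p = 0.0246). Msr1 thus rose in KC and fell in LSEC. The Marco call was lost in 11 of the 13 fits that left out 1 library. With a pseudocount of 0.1 neither passed, and without either normal KC library, PH KC library 1 or 2, or normal LSEC library 1 neither passed. The KC libraries enter both this contrast and the next. Between KC and blood the responses differed for 9 of 10 receptors, where 35.7% of 16527 genes passed and 16.3% passed with a negative contrast. The receptors had contrasts (the KC change minus the blood change) from -2.04 for Cd36 to -6.47 for Fcgr2b. The exception was Msr1 (-1.72, SE 1.12, adjusted p = 0.251).

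In the other 6 sorts of normal liver the receptor means were below those of KC, except Lyve1 in Thy1 (368 against 122 FPKM). Among the highest of the others were Clec4g in HSC at 305 FPKM and Stab1 in Thy1 at 207 FPKM. After PH, Stab1, Stab2, Lyve1, Clec4g and Fcgr2b had higher means in Thy1 than in KC, such as 394 against 169 FPKM for Clec4g. In BEC all 10 were lower after PH without overlap, where 27.3% of 12851 genes tested had no overlap and 22.0% were lower without overlap. Marco, Msr1, Cd163, Stab1, Stab2, Mrc1 and Lyve1 were under 1 FPKM in both PH BEC libraries and were tested through normal BEC alone. Clec4g (0 and 1.91 FPKM) and Fcgr2b (0 and 1.35 FPKM) reached 1 FPKM in PH library 2 only and also needed normal BEC to be tested. Cd36 alone reached it in both PH libraries (1.25 and 2.49 FPKM). Entry through normal BEC favoured a fall in advance, so the shares of all genes are no fair measure for the receptors other than Cd36. There 6 of the 10 passed (Cd36, Stab1, Stab2, Mrc1, Clec4g and Fcgr2b), all lower, where 1.81% of genes passed and 1.57% passed as lower. Clec4g was 32.1, 147, 119.6 and 37.9 FPKM in normal BEC, 0 in PH library 1 and 1.91 FPKM in PH library 2, a change of -5.34 (SE 0.71, adjusted p = 0.0176). Kupffer markers summed to 239 to 614 FPKM in normal and 83.9 to 89.7 FPKM in PH BEC, with 8 of 10 lower, and the markers of endothelium of any kind to 78.4 to 239.9 FPKM and 18 to 19.5 FPKM, with 5 of 10 lower. Their part was not tested. Over the fits that left out 1 library, some with 1 PH BEC library left, the change of Clec4g ran from -6.11 to -4.57.

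In NPD 2 receptors were lower after PH, where 15.2% of 13024 genes passed and 5.51% passed as lower: Cd36 (-2.35, adjusted p = 0.0217) and Cd163 (-2.02, adjusted p = 0.0334). Cd163 was under 1 FPKM in both PH NPD libraries, and Cd36 reached 1 FPKM in PH library 1 only (1.63 and 0.754 FPKM). Both genes needed normal NPD to be tested, which favoured a fall in advance. The shares of all genes are therefore no fair measure for them. Kupffer markers summed to 227 to 457 FPKM in normal and 46.7 to 62.1 FPKM in PH NPD, with 8 of 10 lower. The markers of endothelium of any kind summed to 338 to 385 FPKM and 189.8 to 202 FPKM, with 1 of 7 tested lower. Their part was not tested. Normal NPD library 1 was the higher for all 10 receptors. The NPD calls rest on groups of 2 libraries, and leaving 1 out left 1 in a group. The changes then ran from -2.73 to -1.97 for Cd36 and from -2.44 to -1.60 for Cd163. In HSC 0 of 10 passed (limma), where 0.00853% of 11729 genes did. Of the 10, 7 had an unadjusted p under 0.05, all lower, and the share of all genes with such a p was not computed. In the fit of all 20 groups 7 receptors passed, and over the settings tried 0% to 11.9% of all genes did. Normal HSC library 2 was the higher for all 10 receptors, with Marco at 71.8 FPKM against 0 in library 1, and its summed Kupffer markers were 1449.6 FPKM against 200.4 FPKM.

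In the Thy1 sort 0 of 10 receptors passed (limma), where 0.00747% of 13389 genes did, and 3 had an unadjusted p under 0.05. Cd163 was estimated lower there (-1.51, SE 0.49) and Msr1 higher (2.34, SE 0.57). Cd163 was under 1 FPKM in both PH Thy1 libraries and was tested through normal Thy1 alone, which favoured a fall in advance. In cBEC 0 of 9 tested passed, where 0.0681% of 13225 genes did, and 3 had an unadjusted p under 0.05. In HC 3 receptors passed the filter (Cd36, Clec4g and Fcgr2b) and 0 of them the test, where 6.19% of 10029 genes passed, and 2 had an unadjusted p under 0.05. Cd36 was 8.01, 15.3, 13.2 and 6.92 FPKM in normal HC and 59.7, 53.8, 14.2 and 20.8 FPKM after PH, with libraries 1 and 2 high (1.52, SE 0.46, adjusted p = 0.0877).

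Other receptors of uptake were taken from a list of 40 genes. In LSEC 6 of 23 tested fell after PH and 0 rose, where 4.31% of all genes fell and 4.15% rose. Cd209b, a lectin of the DC-SIGN family, fell from 9.09 to 0.636 FPKM (-2.66, SE 0.30, adjusted p = 0.00176). Pla2r1, a relative of Mrc1, fell from 31.3 to 3.87 FPKM (-2.77, SE 0.34, adjusted p = 0.00235), and Clec14a, an endothelial C-type lectin domain protein, from 322 to 134 FPKM (-1.28, SE 0.23, adjusted p = 0.0103). In KC 4 of 29 tested rose and 7 fell, near the shares of all genes (16.7% and 20.1%). The smallest p belonged to falls of Clec14a (134 to 5.62 FPKM), Pla2r1 (11.3 to 0.370 FPKM) and Clec2d (124 to 40.7 FPKM). In blood 23 of 34 rose and 5 fell, where 24.3% of all genes rose and 39.7% fell. Clec2d went from 2.37 to 118 FPKM and Clec4n (dectin-2, a fungal receptor) from 15.1 to 188 FPKM, whereas Ly75, the dendritic cell receptor DEC-205, fell from 17 to 0.762 FPKM. Cd209b averaged under 1 FPKM in PH LSEC and needed normal LSEC to be tested. Pla2r1 in PH KC and Ly75 in PH blood were under 1 FPKM in every library and were tested through the normal libraries alone. Such entry favoured a fall in advance. The shares of all genes are therefore no fair measure for Cd209b in LSEC, Pla2r1 in KC and Ly75 in blood. In EC 0 of 28 passed (limma), where 0.0249% of all genes did, and 8 had an unadjusted p under 0.05. The median change of the list was -0.44 in LSEC, -0.12 in KC and 2.10 in blood.

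Of 32 genes of the endocytic machinery and lysosome, 4 of 31 tested rose in LSEC after PH and 0 fell, where 4.15% of all genes rose. Ctsb, a lysosomal protease, rose from 347 ± 39.3 FPKM (SD, n = 3) to 619 ± 72.3 FPKM (SD, n = 5), a change of 0.83 (SE 0.17, adjusted p = 0.0179), and Ehd4, a membrane-recycling ATPase, from 30.2 to 54.8 FPKM (0.89, SE 0.22, adjusted p = 0.033). In KC 8 of 30 rose and 7 fell, where 16.7% and 20.1% of all genes did. Ctsd, another lysosomal protease, rose from 1594 to 3805 FPKM and Ehd3, a relative of Ehd4, fell from 599 to 30.8 FPKM. In blood 21 of 30 rose and 1 fell, where 24.3% and 39.7% of all genes did, with the smallest p for Rab5c, a GTPase of early endosomes (18 to 407 FPKM), and Picalm, a clathrin adaptor (22 to 231 FPKM). The list's medians were -0.0001 in LSEC, 0.04 in KC and 1.0 in blood, against -1.25, -2.05 and 2.53 for the receptors.

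The receptors were also set beside each other by the Pearson correlation of log2(FPKM + 1) over the 20 group means, which is a description of groups that share depth and sorting. Clec4g and Fcgr2b (0.9923), Stab2 and Fcgr2b (0.9903) and Stab2, Mrc1 and Clec4g (0.9818 to 0.9894) ran together, and Dnase1l3, a secreted DNase, was among the 3 genes nearest to Clec4g (0.9879). The nearest genes of Stab1 were Pecam1 (0.9899), Cd300lg and Cdh5, and those of Lyve1 were Stab1 (0.9687), Pde2a and Cpne2. Cd163 lay nearest to Fcgr4 (0.9953), Fcgr1 and Timd4, and Marco nearest to Kcnk13 (0.9704), Fabp7 and Lrrc25. Il1a was the nearest gene of both Msr1 and Cd36 (0.9688 and 0.9389). Cd36 correlated at 0.9237 with Stab2 and 0.3612 with Marco, and Msr1 at 0.9336 and 0.6256.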

How the data were processed

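Each library's FPKM were deposited by the authors in 1 table, 1 row per RefSeq transcript; per the file headers, every column is a single sample. The submitters' processing notes name CASAVA 1.8.2, Bowtie 1.0.0 and the build mm9; the counting tool is not given in the sources used here. Where a symbol had several rows (as 4 receptors did), that with the largest mean across the 55 libraries was kept. Libraries were grouped by title, although PH cBEC library 1 is tagged as normal and PH KC library 3 lacks a cell type tag.

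Changes were fitted with limma 3.58.1 in R 4.3.3 (trend, robust) on log2(FPKM + 1), 2-sided, with Benjamini-Hochberg adjustment over all genes tested. A gene was tested if it reached 1 FPKM in a number of libraries no smaller than the smaller group. Counts at an unadjusted p under 0.05 are given without the share of all genes, which was not computed. They are not read as results about the receptors or lists. Each comparison used its own libraries; differences of responses used 1 fit of all 20 groups. All 10 receptors are named; other list genes are those with the smallest p. The receptors and lists were chosen with earlier results of these data known. On simulated data, changes of 2 on the log2 scale were recovered for 185 of 200 genes in the LSEC design (11501 genes), 140 in EC (12064), 161 in KC (11835) and 128 in blood (12819). Alternatives were a pseudocount of 0.1, no filter, quantile and upper-quartile scaling, 1 fit of all groups, a replicate block, sums over rows and leaving out each library. Figures used Python with matplotlib.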

Additional observations from a re-analysis of the deposited data

Results flagged for a closer look

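In groups of 4 or 5 libraries, 9 of 50 receptor-by-group sets had a library far from the others by Dixon's test on FPKM. Chance gives 2.5 only for normally distributed values and separate sets, whereas these receptors share libraries and many values lie near 0. An excess over chance is therefore not shown. Every flagged value was the highest of its set. In PH LSEC these were Marco at 3.75 FPKM in library 1 (others 0.208 to 1.01 FPKM) and Fcgr2b at 1177 FPKM in library 3 (others 298 to 429 FPKM). In PH HC they were Marco at 28.4 FPKM and Cd163 at 2.2 FPKM in library 2, and Clec4g at 25 FPKM and Fcgr2b at 12.5 FPKM in library 1. In the same HC libraries the Kupffer markers summed to 167 FPKM in library 2 (22.1 to 49 FPKM in the others) and the markers of endothelium of any kind to 26 FPKM in library 1 (6.09 to 8.05 FPKM in the others); their part was not tested. In normal HC they were Cd163 at 0.02 FPKM in library 4, listed at 0 in the others, and Mrc1 at 1.04 FPKM and Lyve1 at 0.84 FPKM in library 3.

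The response to PH differed between sorts for 11 receptor contrasts (limma). The LSEC change minus the KC change was -4.39 for Marco and -3.25 for Msr1. The KC change minus the blood change was -4.19 for Marco, -2.04 for Cd36, -4.10 for Cd163, -5.21 for Stab1, -4.44 for Stab2, -4.08 for Mrc1, -5.33 for Lyve1, -5.54 for Clec4g and -6.47 for Fcgr2b. Marco and Cd36 lost their KC-blood call in 9 and 8 of the 9 fits that left out 1 library.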

How the results depend on the processing

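Over 74 receptor differences past the threshold, no sign reversed: 461 of 518 values under another setting and 340 of 451 without 1 library stayed past it. The number of receptors past the threshold changed by more than 1.5 times as follows, and the cause was not tested. With no filter it was 1 in LSEC, 0 in NPD, 1 in BEC and 1 for the LSEC-KC response. In 1 fit of all 20 groups it was 1 in LSEC, 5 in KC, 6 in blood, 7 in HSC, 1 in NPD, 1 in HC, 2 for normal LSEC against KC and 5 for PH LSEC against EC. With a pseudocount of 0.1 it was 10 in BEC, 0 for the LSEC-KC response and 4 for the KC-blood response. Quantile normalization and upper-quartile scaling each gave 1 for the LSEC-KC response. With the replicate block it was 0 in LSEC, 1 in Thy1, 6 in NPD, 10 in BEC, 1 in cBEC and 1 for the LSEC-KC response. Replicate numbers are not stated to pair samples. Correlations of same-numbered normal and PH libraries ran from -0.229 to -0.0108 in LSEC and -0.146 to 0.127 over EC, KC and blood. No number matched its own best in these sorts. Over HSC, Thy1, NPD, BEC and cBEC they ran from 0.0282 to 0.124, and each shared number matched its own best. In HC they ran from -0.641 to 0.474. Whether the numbers pair samples was not settled.

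Leaving out 1 library gave 0 to 5 in LSEC, 0 to 1 in EC, 6 to 9 in KC, 2 to 10 in blood, 0 to 9 in NPD, 0 to 7 in BEC, 0 to 1 in cBEC and 0 to 1 in HC. Between sorts it gave 3 to 7 for normal LSEC against KC, 3 to 5 for PH LSEC against EC and 1 to 6 for PH KC against blood. For responses it gave 0 to 2 (LSEC-KC) and 0 to 1 (LSEC-EC). Share of all genes past the threshold moved too. It ran from 2.37% to 11.4% over the LSEC fits that left out 1 library. Over the other settings it ran from 40.2% to 63.4% in blood, 0% to 11.9% in HSC, 3.61% to 19.5% in NPD and 0.299% to 7.99% in BEC. Summing the rows of a symbol raised levels, such as Msr1 in PH KC to 1390 FPKM. Depth is unknown, so precision at low FPKM cannot be given, and groups of 2 libraries limit the comparisons that use normal KC, normal EC or blood.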

Other observations

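In the Thy1 sort of normal liver, genes chosen after their values were seen differed between the 2 libraries together with Lyve1. Lyve1 was 699.7 FPKM in library 1 and 36.3 FPKM in library 2. Mmrn1 (1238 and 34.1 FPKM), Flt4 (396 and 45.9 FPKM) and Prox1 (87.9 and 40.4 FPKM), known among others from lymphatic endothelium, were higher in the same library. Pdpn, also known from it, was 237 and 160.4 FPKM in these libraries, and Ccl21a was listed at 0 in both. Flt4, also on the sinusoidal list, was 333 to 638 FPKM in normal LSEC, and was 87 and 186 FPKM in the PH Thy1 libraries. In these PH libraries Lyve1 was 104.8 and 126 FPKM and Mmrn1 56.9 and 21.9 FPKM.

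Fcna, a ficolin placed on the sinusoidal marker list, was the highest gene of that list in KC, at 2319 FPKM in normal and 3146 FPKM in PH liver, and 16.3 FPKM in normal LSEC. Without it, a choice made after seeing the data, the list summed to 1814 to 2356 FPKM in normal KC and 84.2 to 204.5 FPKM in PH KC.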
